A study of Mus musculus with 36 samples.

Results

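Places in the mouse genome recovered with HA-tagged wild-type histone H4 (H4WT) were compared with those recovered from cells carrying only the empty vector. The H4WT list held 69158 regions and the empty-vector list held 3007, 72165 in all. A region was placed by whether it shared at least 1 bp with a region of the other list. By that rule 67078 H4WT regions met no empty-vector region and 2080 met one, while 2106 empty-vector regions met an H4WT region and 901 met none.

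The series holds 36 samples, 18 pulldowns and 18 inputs, from mouse cells carrying tagged wild-type or mutant H4. Both groups compared here are mouse embryonic stem cells (mESCs), labelled parental, that differ in a stably carried PiggyBAC construct, which is a transposon vector that inserts into the genome. One construct encodes wild-type H4 with a 3HA tag and the other is the empty vector. Chromatin of both was fixed with paraformaldehyde, sheared by sonication and captured on Pierce anti-HA magnetic beads. Whether each line is 1 clone or a pool, which promoter drives the construct and how much tagged H4 the cells make are unstated in the labels. Each group is 1 library, so no difference below has a replicate check and no test was made. The mESC label could not be checked against marker expression, because the pulldown does not measure RNA.

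Histone H4 is part of every nucleosome, where it pairs with histone H3 and is delivered to DNA by chaperones. H3 with H4 is placed during DNA replication by the CAF-1 complex, and H3.3 with H4 is placed outside replication by chaperones such as HIRA and DAXX. Because H4 is found throughout chromatin, a peak list shows where the pulldown rose locally above its input and not all places that hold H4. The empty-vector pulldown carries no HA-tagged histone and shows DNA that is recovered without it.

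The classes are illustrated by 6 promoter windows, chosen by rank of the authors' fold enrichment among regions that touched a listed gene start. Each runs from 250 bases before to 50 bases after a gene start in RefSeq, build GRCm38.p6, and is printed 5′ to 3′ on the gene's strand with every CG dinucleotide in capitals. CG dinucleotides are dense in the CpG islands that lie at many mammalian promoters. Phyhipl (chr10:70599242-70599541 on the minus strand) and the imprinted gene Nnat (chr2:157559828-157560127 on the plus strand) had an H4WT region and no empty-vector region. Vps4a (chr8:107031019-107031318 on the plus strand) and H2-Q6 (chr17:35424600-35424899 on the plus strand) had both among the H4WT regions of highest fold. Arhgap4 (chrX:73911249-73911548 on the minus strand) had both and ranked high in the empty-vector list, and Prm3 (chr16:10790865-10791164 on the minus strand) had an empty-vector region alone.
Phyhipl: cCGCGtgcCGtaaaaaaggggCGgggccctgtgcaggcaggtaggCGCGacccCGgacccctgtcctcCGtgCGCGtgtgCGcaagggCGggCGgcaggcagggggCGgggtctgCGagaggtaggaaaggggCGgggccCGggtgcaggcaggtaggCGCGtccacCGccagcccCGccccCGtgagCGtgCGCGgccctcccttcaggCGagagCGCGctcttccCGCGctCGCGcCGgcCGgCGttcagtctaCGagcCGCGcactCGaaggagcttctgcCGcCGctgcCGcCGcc
Nnat: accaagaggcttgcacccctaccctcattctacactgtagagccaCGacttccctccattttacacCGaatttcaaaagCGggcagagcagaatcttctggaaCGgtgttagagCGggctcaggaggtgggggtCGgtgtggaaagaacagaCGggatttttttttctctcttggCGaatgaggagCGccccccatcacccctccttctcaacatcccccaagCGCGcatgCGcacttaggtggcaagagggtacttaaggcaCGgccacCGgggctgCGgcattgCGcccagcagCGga
Vps4a: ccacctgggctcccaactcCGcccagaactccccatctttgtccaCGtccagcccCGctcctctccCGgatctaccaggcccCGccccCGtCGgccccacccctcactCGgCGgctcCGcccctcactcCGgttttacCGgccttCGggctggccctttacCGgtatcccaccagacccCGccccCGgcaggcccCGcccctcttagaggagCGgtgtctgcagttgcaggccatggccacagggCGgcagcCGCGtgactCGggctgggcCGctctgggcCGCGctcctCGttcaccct
H2-Q6: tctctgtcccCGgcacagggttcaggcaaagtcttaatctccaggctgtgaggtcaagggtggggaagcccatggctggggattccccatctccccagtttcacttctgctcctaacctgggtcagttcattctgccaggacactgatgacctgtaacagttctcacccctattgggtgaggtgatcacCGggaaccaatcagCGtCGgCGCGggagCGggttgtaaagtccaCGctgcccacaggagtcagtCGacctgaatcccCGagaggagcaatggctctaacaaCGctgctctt
Arhgap4: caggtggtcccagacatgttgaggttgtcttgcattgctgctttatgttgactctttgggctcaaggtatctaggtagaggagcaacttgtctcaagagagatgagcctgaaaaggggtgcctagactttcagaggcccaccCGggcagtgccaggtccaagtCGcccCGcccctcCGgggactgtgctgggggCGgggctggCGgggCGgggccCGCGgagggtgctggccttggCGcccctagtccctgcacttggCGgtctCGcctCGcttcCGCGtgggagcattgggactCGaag
Prm3: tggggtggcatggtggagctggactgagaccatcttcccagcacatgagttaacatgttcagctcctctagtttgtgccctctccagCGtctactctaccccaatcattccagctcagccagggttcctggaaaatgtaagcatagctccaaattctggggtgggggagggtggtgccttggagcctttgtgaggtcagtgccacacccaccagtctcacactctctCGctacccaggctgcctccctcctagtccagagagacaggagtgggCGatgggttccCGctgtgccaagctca
The Phyhipl window held 43 CG dinucleotides and the Nnat window 17. The windows of Vps4a and H2-Q6 held 26 and 11, that of Arhgap4 held 16 and that of Prm3 held 4.

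Most places found without the tag were found again with it, whereas few places found with the tag were found without it. Of the empty-vector regions, 70.0% overlapped an H4WT region, with a 95% exact (Clopper-Pearson) interval of 68.4 to 71.7%. Of the H4WT regions, 3.01% overlapped an empty-vector region (2.88 to 3.14%). These intervals, and those below, cover counting error over regions only. The read depths of the libraries are unknown. The H4WT list was also cut to its 3007 regions of highest −log10 q. The shares were then 8.81% of H4WT and 10.01% of empty-vector regions, so the empty-vector share depends on the length of the H4WT list. H4WT regions covered 24.0 Mb, or 0.881% of a 2722 Mb span, and empty-vector regions covered 0.609 Mb.

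Overlapping H4WT regions were wider than the rest, an order partly built in because wider regions more easily share 1 bp. Their median width was 346 bp against 265 bp for H4WT regions with no empty-vector overlap. In the H4WT list cut to 3007 regions this order turned, with 647 and 660 bp. The 95% interval of the former median (576 to 714 bp, 265 regions) includes 660 bp. Regions of 1000 bp or more made up 5.82% (4.85 to 6.91%) of the overlapping H4WT regions and 2.15% (2.04 to 2.27%) of the others. The fold enrichment of a peak over its input, which is the authors' value and is read here only within a list, had a median of 6.47 in overlapping and 5.68 in non-overlapping H4WT regions. The medians were 6.50 and 6.42 with −log10 q of 5 or more in both lists, and in the cut list the order turned, with 11.0 and 11.4. In the empty-vector list the medians were 5.45 for regions that met H4WT and 5.52 for those that did not, and the median widths were 177 and 167 bp.

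The share of H4WT regions that met an empty-vector region rose from 1.16% in the narrowest 20% to 5.16% in the widest 20%. By fold it was 2.38, 1.77, 2.54, 3.43 and 4.91% from the lowest to the highest 20%. Among empty-vector regions the share that met H4WT rose with width from 57.5 to 83.7%, and by fold it ran between 65.2 and 76.2% with no steady order. In both lists the rise with width is partly built in, because a wider region has more bases that can meet another. H4WT regions that were both among the widest and of lowest fold stood apart, since 62 of 342 (18.1%, 14.2 to 22.6%) met an empty-vector region. Of these 62 regions, 23 lay in the first 4 Mb of chromosome 9.

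**Figure D1:**
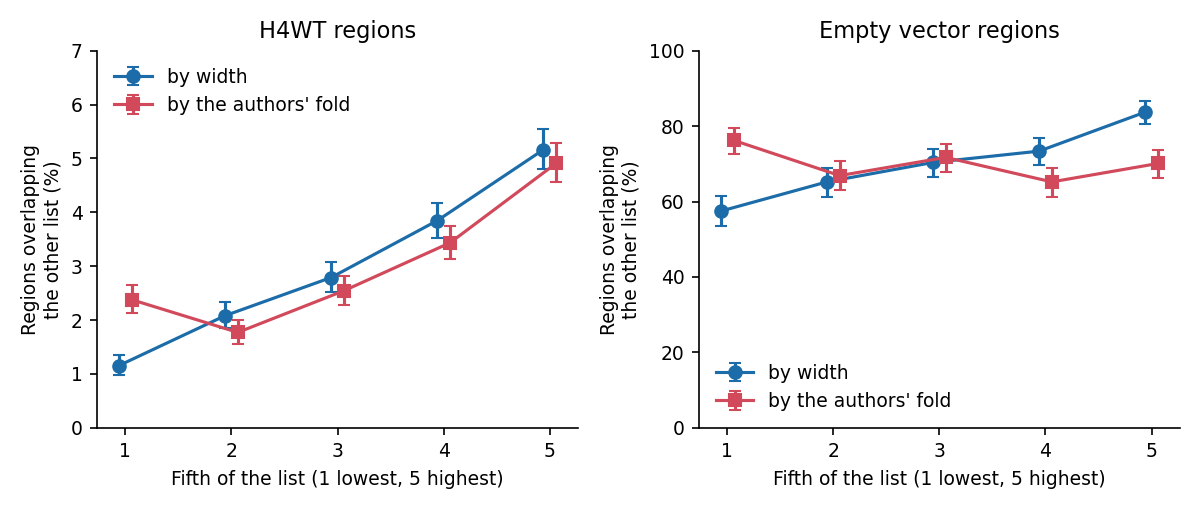
Share of regions of each list that overlap the other list (vertical axis, percent), with regions split into 5 equal groups by width or by the authors' fold (horizontal axis, lowest to highest). Points are shares of 1 library and bars are 95% exact intervals. In the H4WT list the share by width runs from 1.16 to 5.16%.

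The overlaps formed 2151 pairs of regions, and the median distance between the summits of a pair was 61 bp. In 1438 pairs (66.9%) the summits lay within 100 bp. Pairs were chosen for sharing a base and the regions are narrow, so short distances are largely fixed by that choice. The empty-vector region lay wholly inside the H4WT region in 1342 pairs (62.4%), and the H4WT region was the wider one in 2002 pairs (93.1%). No H4WT region was narrower than 189 bp, while empty-vector regions went down to 163 bp, with a median of 174 bp. Both counts are therefore largely fixed by the widths of the lists. Across pairs the fold values of the lists had a Spearman correlation of 0.11, and their log2 values had a Pearson correlation of 0.36. Both are given as a description over regions of a pair of libraries that share cell type and bead.

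The 901 empty-vector regions with no H4WT overlap lay a median of 9.07 kb from the nearest H4WT region, and 108 of them lay within 500 bp of one. The 67078 H4WT regions with no empty-vector overlap lay a median of 110 kb from the nearest empty-vector region. The lists also differ in spacing, with a median gap of 4.88 kb between H4WT neighbours and 198 kb between empty-vector neighbours.

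H4WT regions without an empty-vector counterpart lay at gene ends more often than those with one. By its midpoint, 25.3% of the former and 12.8% (11.4 to 14.3%) of the latter lay within 1 kb of either end of a protein-coding gene. Elsewhere inside genes lay 49.5% and 61.3%, and outside genes lay 25.3% and 25.9%. The latter pair moved apart to 21.7 and 32.2% with −log10 q of 5 or more in both lists, and to 13.6 and 36.2% with the H4WT list cut to 3007 regions. Of the empty-vector regions that met H4WT, 12.3% lay at a gene end and 60.9% elsewhere in a gene. Of those that did not, 4.88% lay at a gene end and 43.1% outside genes. Protein-coding genes cover 37.9% of the span.

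**Figure D2:**
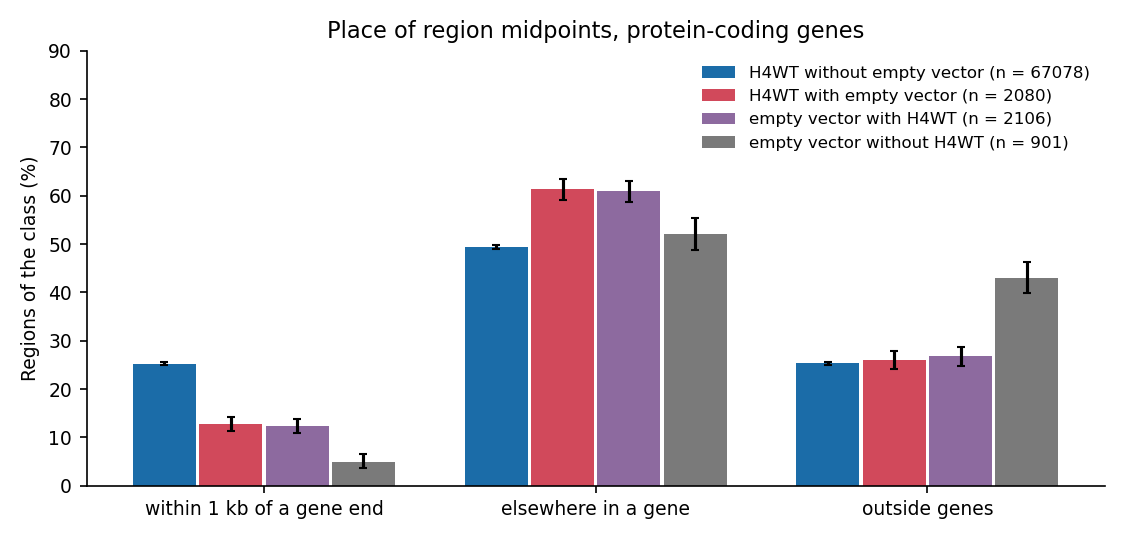
Share of regions (percent) within 1 kb of a gene end, in the rest of a gene or outside genes, for H4WT and empty-vector regions with and without overlap. Each share is from 1 library with its 95% exact interval, and the gene-end share is 25.3% for H4WT regions without overlap and 4.88% for empty-vector regions without overlap.

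The gene-end difference was seen at gene starts, and at other gene ends away from any start the order was opposite. On the 20 chromosomes with listed starts, 19.9% (19.6 to 20.2%) of H4WT regions without empty-vector overlap and 6.37% (5.35 to 7.52%) of those with overlap had their midpoint within 1 kb of a start. At the other gene end, counting only regions not also within 1 kb of a start, the shares were 3.87% and 5.59% (4.63 to 6.67%). This exclusion can take more from the class without overlap, which lies at starts more often. The shares with such regions kept were not computed. Windows around starts take up 1.37% of the span and those around other ends 1.23%. Of the empty-vector regions without H4WT overlap, 16 of 880 (1.82%) lay at a start and 2.61% at another end away from any start.

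The start share of H4WT regions without overlap rose from 8.76% in the narrowest to 41.2% in the widest 20%, and from 12.4 to 35.7% from the lowest to the highest 20% by fold. For H4WT regions with overlap it rose from 1.27 to 10.7% by width and from 2.48 to 10.8% by fold. Within the widest or the highest 20% the share was thus still higher without overlap.

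Summits of H4WT regions without overlap were most frequent just inside the gene. The fullest 100 bp bin held 2273 summits (3.47%) and ran from 100 to 200 bp past the start. The 200 bp before the start held 2.24% of summits, against 5.63% in the 200 bp after it and 9.38% from 200 to 1000 bp after it. For H4WT regions with overlap these shares were 0.490, 1.47 and 4.21%, and the fullest bin held 24 summits from 200 to 300 bp past the start.

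**Figure D3:**
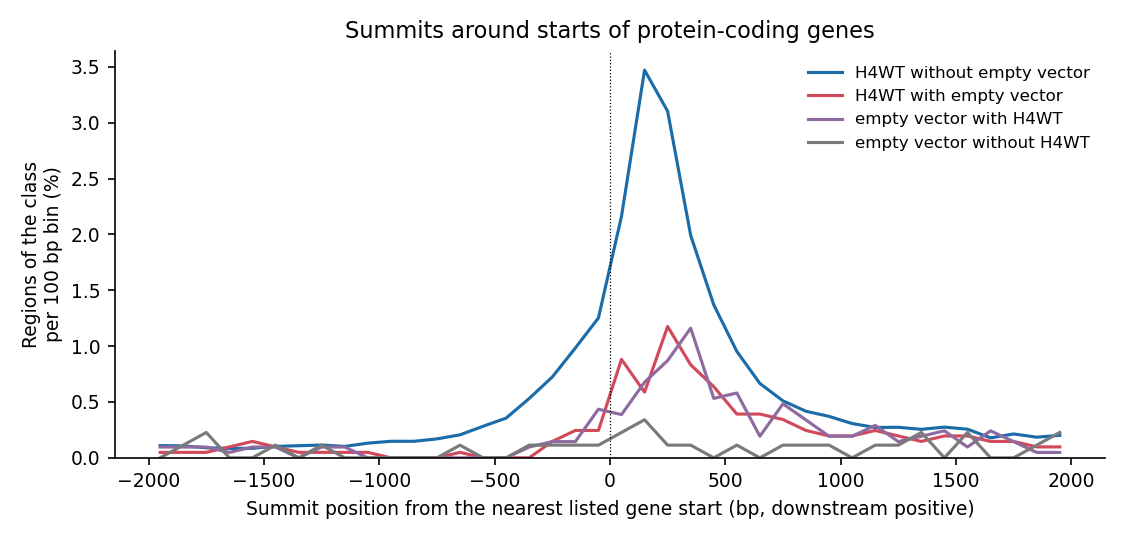
Share of summits per 100 bp bin (vertical axis, percent) by distance from the nearest listed gene start (horizontal axis, bp, positive inside the gene). Lines are region classes of 1 library each; H4WT regions without overlap reach 3.47% in the bin from 100 to 200 bp.

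Promoters with an H4WT region were rich in CG, and more so without empty-vector overlap. Of 32851 promoter windows, 10084 were touched by an H4WT region without overlap, and these held a median of 24 CG dinucleotides and 64.8% G or C. The 117 windows touched by an overlapping H4WT region held a median of 15 CG and 62.7% G or C. The 75 windows touched by any empty-vector region held 10 CG, and the 22643 touched by neither list held 4. At least 15 CG were present in 78.9, 53.0, 36.0 and 14.8% of these groups of windows.

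Split by CG content, 1.11% of the windows with the fewest CG and 78.7% of those with the most were touched by an H4WT region without overlap. Empty-vector regions touched 0.0152% of the windows with the fewest CG, 0.502% of those in the middle group and 0.213% of those with the most. The empty-vector share was therefore highest at middle CG content in this library, although the intervals of the upper groups overlap.

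**Figure D4:**
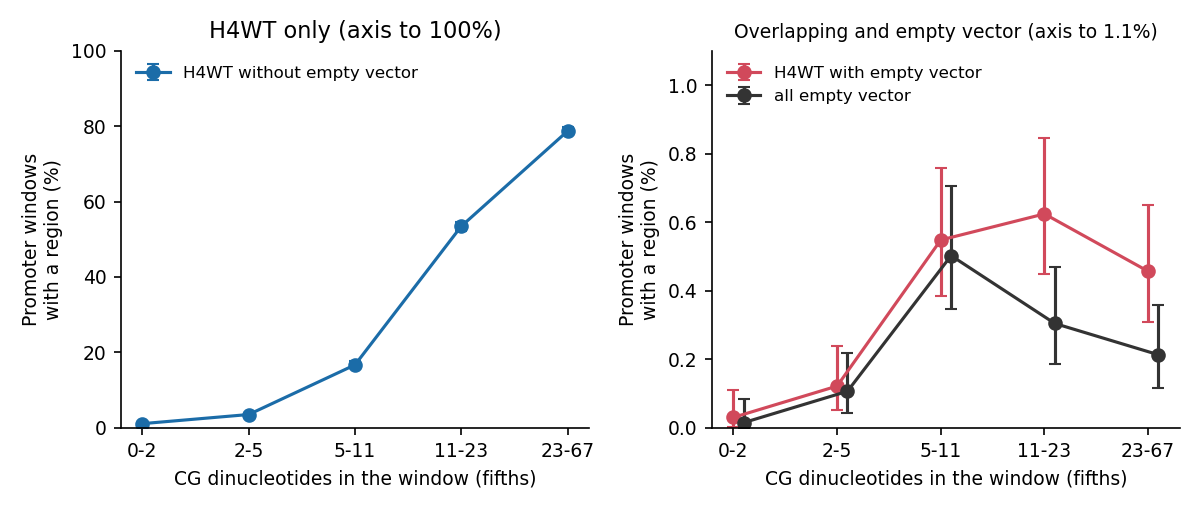
Share of promoter windows touched by a region (vertical axis, percent, with a different scale in each panel) against CG dinucleotides per window in 5 equal groups (horizontal axis). Points are shares of 1 library with 95% exact intervals; H4WT regions without overlap reach 78.7% of the windows with the most CG.

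Of 21887 protein-coding genes, 12775 (58.4%) had an H4WT region without overlap that touched the 1 kb on either side of a gene end. An H4WT region with empty-vector overlap did so at 358 genes (1.64%), and 247 of these also had one without overlap. Any H4WT region did so at 12886 genes (58.9%). Any empty-vector region did so at 366 genes (1.67%), with 312 (1.43%) met by H4WT and 56 (0.256%) not met. Counted at listed starts alone, the genes were 10063 of 17492 (57.5%) for H4WT regions without overlap and 148 (0.846%) for those with overlap. Counted over whole genes, where long genes are met more often in any class, the median gene length was 71.0 kb for empty-vector regions that met no H4WT region and 32.2 kb for those that did. It was 32.1 kb for H4WT regions with overlap, 23.9 kb for those without and 17.2 kb for all protein-coding genes.

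Among gene ends with an H4WT region and, by definition of the class, no empty-vector overlap, folds reached 20.2 once predicted genes were left out. Phyhipl, which encodes a phytanoyl-CoA hydroxylase-interacting protein-like protein, had a region at chr10:70598664-70600314 with a fold of 20.2 in the H4WT list and none in the empty-vector list. Its CG-dense promoter is printed above. The region at the zinc finger gene Zfp787 had a fold of 20.04, and that at Nnat, a paternally expressed imprinted gene for a small membrane protein, had 18.7 (chr2:157559726-157561095). Irf2bpl (17.4), the acid-sensing ion channel gene Asic4 (17.4), the choline kinase gene Chka (17.3), the NAD-cleaving enzyme gene Sarm1 (16.9) and Rnf44 (16.7) followed. One region of fold 16.7 lay at both Acads, a short-chain acyl-CoA dehydrogenase gene, and Rpl37rt.

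Overlapping gene ends also reached high values in the H4WT list. The region at the start of Vps4a, which encodes an ATPase of the ESCRT membrane-cutting machinery, had a fold of 17.3 in the H4WT list and met an empty-vector region of fold 5.91. At the end of Arhgap25 the values were 17.0 and 8.01. They were 15.3 and 3.95 at Atp13a2, a lysosomal transporter gene, and 13.9 and 5.14 at the Wnt receptor gene Ror2. The MHC class I gene H2-Q6 had 13.7 and 5.44, and the ESCRT-I subunit gene Mvb12a had 13.6 and 5.34. H2-Q6 has near-identical copies in its cluster, so its reads may be shared among them. A value of one list is not larger or smaller than a value of the other, because each was scaled to its own input.

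The overlapping gene ends of highest fold in the empty-vector list were others, apart from Arhgap25. The region at Slc16a5, a monocarboxylate transporter family gene, had an empty-vector fold of 8.38 and met an H4WT region of 4.73. At Hap1, the gene for huntingtin-associated protein, the values were 8.30 and 7.23. The Arhgap4 promoter printed above had 7.71 in the empty-vector list and 5.57 in the H4WT list. One region lay at both Dcxr and Rac3 (7.28 and 5.48). At Gpr37l1 the values were 7.17 and 11.4.

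Empty-vector regions without H4WT overlap were few at gene ends. Leaving out predicted genes, the one of highest fold, 7.05, lay at the adjoining protamine genes Prm2 and Prm3, which serve sperm DNA packing (chr16:10790813-10790986). Neither mutant H4 list had a region there. Rnf19b (6.87), the transcription factor gene Cebpa (6.69), the chemokine scavenger gene Ackr2 (6.65) and Mmrn2 (6.62) followed, each without a region in the H4WT list.

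Most regions of highest fold in each class lay away from gene ends. Without overlap, the H4WT region of highest fold, 33.5, was 3911 bp wide and lay in Polrmt, the gene for the mitochondrial RNA polymerase (chr10:79737440-79741350). It was followed by regions in Zfp629 (29.9) and on the Y chromosome (27.9 and 26.3), and by one in Spred2, a gene for an inhibitor of Ras signalling (24.9). Of these, the Y chromosome region of fold 26.3 lay at a gene end, the start of the predicted gene Gm52481. With overlap, the highest lay in Acap2, with a fold of 24.1 in the H4WT list and 6.32 in the empty-vector list (chr16:31162393-31163360). The next lay outside genes, at 21.3 and 4.62 on chromosome 1, 48657 bp from Pdcd1, and at 21.1 and 6.16 on chromosome 4, 7819 bp from the vomeronasal receptor gene Vmn1r2. In the empty-vector list the regions of highest fold without H4WT lay 75932 bp from Sash1 (8.48) and in Rbfox1, a neuronal splicing regulator gene (8.38).

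The share of genes with an H4WT region without overlap ranged from 1.70 to 97.4% over the gene lists. Against 58.4% of all protein-coding genes, such a region was present at 38 of 39 Hox genes, which pattern the body axis, at 30 of 33 imprinted genes and at 27 of 30 Polycomb subunit genes. It was present at 32 of 36 neural progenitor genes, 28 of 32 splicing factor genes and 25 of 29 genes for H3-H4 chaperones and H3.3. Among pluripotency genes it was present at 24 of 32, with folds of 11.7 at Klf2 and 9.31 at Sox2. Hoxa3 had 14.5, Zic2 of the neural progenitor list 13.1, and the imprinted gene Nap1l5 16.2.

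Counts also above the share of all genes were 23 of 28 germline, 28 of 36 mesoderm and endoderm, 65 of 87 ribosomal protein, 29 of 39 proteasome, 22 of 30 housekeeping and 26 of 36 neuronal genes. Clustered protocadherins had 38 of 57 and mitochondrial ribosomal proteins 51 of 78. Many gamma protocadherin genes, Pcdhga1 and Pcdhgc5 among them, had the same highest fold of 6.06. A region may thus be counted at several of these genes, and the 38 members need not be 38 separate regions. Several of these intervals include the 58.4% of all genes. They are those of proteasome (57.9 to 87.0%), housekeeping (54.1 to 87.7%), neuronal (54.8 to 85.8%), protocadherin (52.9 to 78.6%) and mitochondrial ribosomal protein genes (53.8 to 75.8%). That of pluripotency genes (56.6 to 88.5%) does too. Other groups were near or below the share of all genes, with 14 of 22 embryonic fibroblast genes, 10 of 16 DNA methylation genes and 213 of 394 Zfp zinc finger genes. Replication-dependent histone genes had 9 of 65, olfactory receptor genes 24 of 1106 and vomeronasal receptor genes 6 of 353. Members of these last families, and of the zinc finger and protocadherin groups, resemble each other closely, so reads may have been shared or lost among them. No list differs by a test here, and the counts describe 1 library.

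The order of the lists depended on the length of the H4WT list. With that list cut to 3007 regions, 7.56% of all protein-coding genes had such a region, against 16 of 39 Hox, 10 of 36 neural progenitor, 8 of 33 imprinted and 5 of 30 Polycomb subunit genes. Of the lists, 7 that had been above the share of all genes then lay below it. They were ribosomal proteins (2 of 87), proteasome subunits (2 of 39), protocadherins (0 of 57), pluripotency (2 of 32), H3-H4 chaperones and H3.3 (2 of 29), DNA methylation (0 of 16) and embryonic fibroblast (1 of 22). Zfp genes (31 of 394) moved from below to above.

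At gene ends, empty-vector regions lay at 7 of 394 Zfp genes, 4 of 1106 olfactory receptor genes and 2 of 36 genes each in the neuronal and the mesoderm and endoderm lists, against 1.67% of all genes. The germline gene Asz1, which acts in piRNA silencing, had an empty-vector fold of 5.14 and an H4WT fold of 6.58. The muscle regulator Myog had 5.53 and 7.42, Gata4 had 3.95 and 5.05, Tubb3 had 4.35 and 11.4, and Hoxb13 had 4.74 and 9.61. The ribosomal protein gene Rpl39l had an empty-vector region of 5.65 and no H4WT region. The other 13 lists had none at a gene end, with upper 95% limits from 1.04% (353 vomeronasal receptor genes) to 20.6% (16 DNA methylation genes). Counted over whole genes with 1 kb on each side, 10 of these lists held members with an empty-vector region, from 1 member up to 3 of 29 chaperone and 5 of 57 protocadherin genes. Over all protein-coding genes the whole-gene count was 1658 of 21887, so these list counts are not read as raised. The neural progenitor, embryonic fibroblast and replication-dependent histone lists had none.

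**Figure D5:**
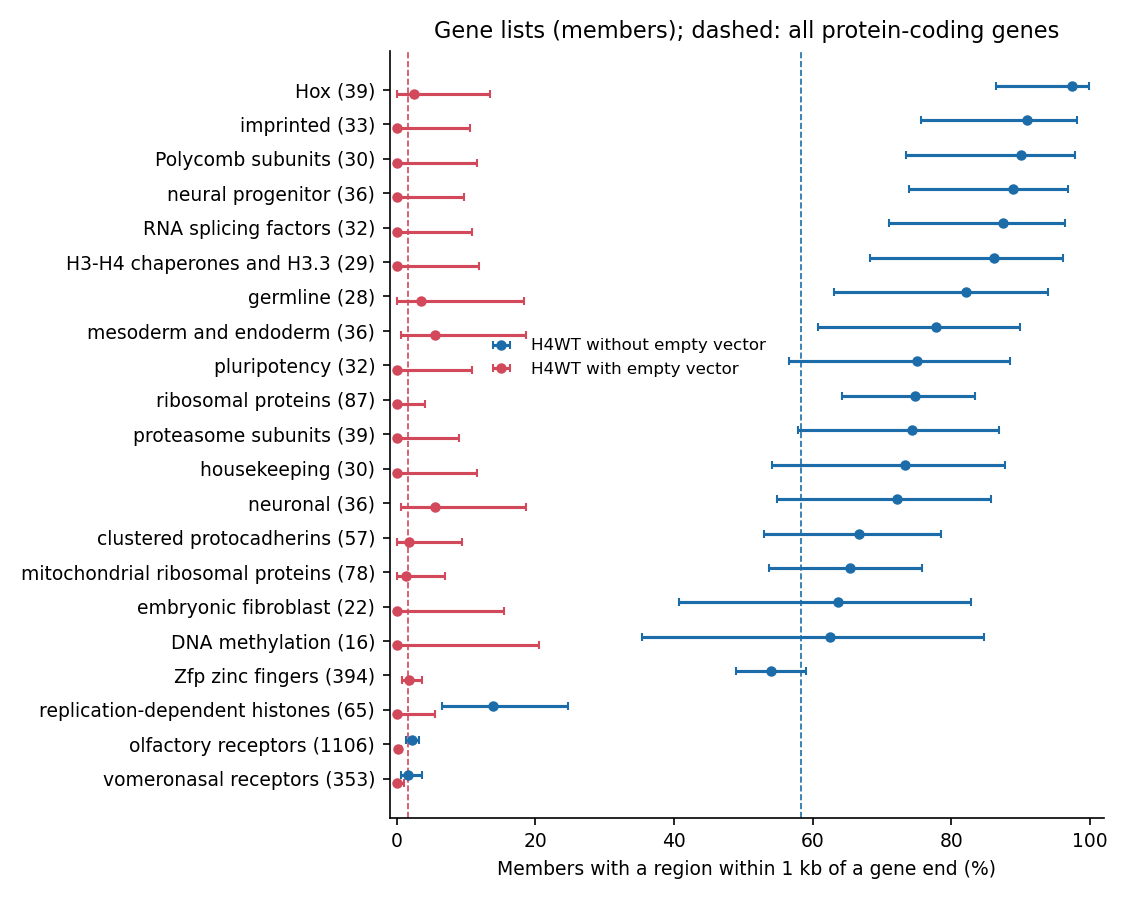
Share of the members of each gene list (percent) with an H4WT region without (blue) or with (red) empty-vector overlap near a gene end. Dots are shares from 1 library, bars are 95% exact intervals over genes, and dashed lines mark all protein-coding genes at 58.4 and 1.64%.

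Among genes that encode no protein, H4WT regions without overlap lay at 3202 of 12727 long non-coding RNA genes (25.2%), 369 of 1228 miRNA genes (30%) and 71 of 408 tRNA genes (17.4%). Empty-vector regions lay at 91 long non-coding RNA genes (0.715%), 18 miRNA genes (1.47%) and no tRNA gene (0%).

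Chromosomes with many H4WT regions also had many empty-vector regions. Chromosome 8 had 2.85 empty-vector regions per Mb, the highest value, followed by chromosome 11 with 1.88, and the X chromosome had 0.0644, the lowest. H4WT regions were densest on chromosome 11 (51.1 per Mb) and chromosome 8 (41.7 per Mb). Over the 19 autosomes the Spearman correlation of the densities was 0.95 and Pearson's was 0.87, as a description of points that share gene density and base composition. The share of H4WT regions that met an empty-vector region was 5.47% (4.87 to 6.11%) on chromosome 8 and 1.89% on chromosome 14, the highest and lowest of the autosomes. It was 0.968% on the X chromosome and 5.62% (5 of 89 regions) on the Y chromosome. Without chromosome 8 the share over the genome was 2.80%.

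Overlapping regions of both lists lay mainly in gene-dense windows. Of 1 Mb windows, the 20% with the most genes held 58.9% of H4WT regions without overlap, 61.5% (59.4 to 63.6%) of those with overlap and 38.3% (35.1 to 41.6%) of empty-vector regions without H4WT. With −log10 q of 5 or more in both lists the first pair turned to 60.9 and 57.1%. The interval of the latter (52.8 to 61.2%, 559 regions) includes the former. Under the main rule, the 20% of windows with the fewest genes held 3.32, 3.46 and 10.7% of the same classes. The window of chromosome 8 from 122000001 to 123000000 held 32 empty-vector regions, 31 overlapping H4WT regions and 322 H4WT regions without overlap.

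The densest cluster of empty-vector regions lay at the low-coordinate end of chromosome 9, the end of mouse chromosomes at which the centromere lies. From 2999971 to 3188851, 61 empty-vector regions were found over 189 kb with a median fold of 3.01, and 56 of them met H4WT. In that span 50 of 53 H4WT regions overlapped an empty-vector region. The first 4 Mb of all chromosomes held 97 overlapping H4WT regions (4.66%, 3.80 to 5.66%) and 553 non-overlapping ones (0.824%). Of the 97, 50 lay on chromosome 9 and 19 on chromosome 11, in the windows from 3000001 to 4000000. The same windows held 18 and 81 of the 553. Most of the overlapping share thus came from these windows, and it is not read as a trait of all chromosome ends. Shares without these windows were not computed. The treatment of reads that fit many places is not given in the sources used here.

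The widest overlapping H4WT region, singled out after its value was seen, covered the 18S ribosomal RNA-like pseudogene Rn18s-rs5 on chromosome 17. It ran over 6062 bp (chr17:39842888-39848949) with a fold of 8.15, and 4 empty-vector regions with folds from 3.16 to 5.20 lay within it. Ribosomal DNA is highly repeated in the genome.

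Overlapping H4WT regions were also met more often by the pulldown of H4K91R, a mutant with arginine in place of a lysine, from parental mESCs. A region of the H4K91R list met 57.1% (54.9 to 59.2%) of H4WT regions with empty-vector overlap and 37.9% of those without. In the 20% of H4WT regions of highest fold these shares were 74.4 and 67.2%, and in the lowest 20% they were 52.3 and 23.4%. The shares were not split by width, and H4WT regions with overlap were the wider ones (median 346 against 265 bp). The list of H4K91Q, with glutamine at that place, met 4.57% and 4.12%. Of the 901 empty-vector regions without H4WT overlap, H4K91R met 16.4% and H4K91Q met 3 regions (0.333%). These lists share the bead and parental cells, and each is 1 library.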

How the data were processed

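Anti-HA ChIP-seq peak lists of 4 pulldowns were used, and the other 32 samples of the series were not analysed here. Peaks were called with MACS2 on mm10, per the submitters' processing notes, and the peak names show each pulldown called on its own. The aligner, the MACS2 version, the treatment of duplicate and multiply placed reads and the threshold were not given in the sources used here. For every peak the deposited lists give a score, which in these files is 10 times the deposited −log10 q rounded down, a fold enrichment (a ratio of pulldown to input), a −log10 p-value and a −log10 q-value, all the authors' own. The lowest deposited −log10 q was 1.40 for H4WT and 1.77 for the empty vector. No read numbers are given, so depth is unknown and intervals cover counting error only.

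Peaks on chromosomes 1 to 19, X and Y were merged where they touched, which removed 0 peaks, and compared with a minimum overlap of 1 bp. Gene ends came from a RefSeq table and starts from RefSeq promoter windows, both on GRCm38.p6, the assembly of mm10. Start counts cover the 20 chromosomes with listed starts, and 17492 of 21887 protein-coding genes have one. Place was taken from region midpoints, profiles from summits, and counts of genes from any base within 1 kb of a gene end. Of 2586 list symbols, 2578 matched, and lists defined by a symbol pattern match in full by construction. In the imprinted list 33 of 40 symbols matched a protein-coding gene, and in the chaperone list 29 of 30.

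The genes named are the 10 of highest fold per class at gene ends, leaving out predicted genes, the 5 regions of highest fold, the 3 widest and the 5 genes with most regions per class (the text gives some of these), and for each list the 3 of highest H4WT fold without overlap and up to 5 with an empty-vector region. The members and lists were chosen with earlier results of these data known. With 1 library per group no test was made. Shares have exact 95% intervals (scipy 1.17.1, Python 3.11.15, pandas 2.3.3, numpy 2.4.6), and figures were drawn with matplotlib 3.10.9. Overlap code was tested on simulated regions and recovered 2059 of 2059 planted overlaps and called 0 of 2941 planted gaps. Alternatives were a stricter q, other overlap, merging and window rules, a shortened H4WT list, all annotated genes and covered bases. Leaving out chromosome 8 or the first 4 Mb of chromosome 9 was added after seeing the data.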

Additional observations from a re-analysis of the deposited data

How the results depend on the processing

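The gene-end share was higher for H4WT regions without than with empty-vector overlap in 8 of 8 alternatives. Values below are given first without and then with overlap. With −log10 q of 5 or more in both lists, 1.13% of H4WT and 68.1% of empty-vector regions overlapped, the median width was 314 and 390 bp, the median fold 6.42 and 6.50, the gene-end share 29.2 and 10.9%, the share outside genes 21.7 and 32.2%, the share in the densest windows 60.9 and 57.1%, the share met by H4K91R 45.1 and 67.6% and by H4K91Q 4.66 and 6.80%, and 84 genes had an overlapping region. With that limit on the empty-vector list alone the overlaps were 0.928 and 77.5%. The order of the densest-window shares thus turned under the stricter limit and with the shortened list. Under the stricter limit the interval of the overlapping class (52.8 to 61.2%) included the 60.9% of the other class. The cause of the turn was not tested. With the H4WT list cut to 3007 regions the overlaps were 8.81 and 10.01%, the widths 660 and 647 bp, the folds 11.4 and 11.0, the gene-end shares 48.7 and 14.7%, the shares outside genes 13.6 and 36.2%, the genes 1654 and 62, the densest-window shares 69.3 and 57.4%, and the shares met by H4K91R 83.6 and 92.1% and by H4K91Q 14.5 and 21.5%. The orders of width and fold also turned there, although the width interval with overlap (576 to 714 bp) included 660 bp. Of 21 gene lists, 7 went from above to below the share of all genes and 1 (Zfp) from below to above, as fewer regions were used. Requiring 50% overlap gave 1.46 and 66.5%. Counting regions within 500 bp as overlapping gave 3.91 and 73.6%, and for overlapping regions a width of 326 bp, a fold of 6.23, 23.0% outside genes, 64.2% in the densest windows and 53.5% met by H4K91R. Merging peaks within 500 bp gave 3.50% of H4WT regions, and covered bases gave 1.70 and 66.9%. Windows of 500 bp gave gene-end shares of 17.9 and 7.16%, 26.2% outside genes without overlap and 235 genes with overlap, and windows of 2 kb gave 33.6 and 20.8%, 24.1% and 553 genes. With all annotated genes the gene-end shares were 31.0 and 17.3% and the shares outside genes 18.7 and 19.6%. Of the alternatives chosen after seeing the data, leaving out chromosome 8 gave 2.80% overlap, a gene-end share of 25.6% and 37.5% met by H4K91R without overlap, and kept 13 of 16 values within their intervals. Leaving out the first 4 Mb of chromosome 9 kept 16 of 16. No paired analysis was possible because each group is 1 library and the results come from no test, and for the same reason no library could be left out. The depth of the libraries is unknown, so the tag and the depth of a library cannot be told apart as sources of the difference in list length.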

Other observations

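Some genes held many regions of both lists. Gse1, on chromosome 8 (120228501 to 120581383), held 218 H4WT regions without and 13 with empty-vector overlap. Sfi1, a gene for a centrin-binding protein near the low-coordinate end of chromosome 11, held 6 without and 13 with overlap, with 16 empty-vector regions that met H4WT and 1 that did not. Macrod1 held 74 H4WT regions and no empty-vector region. Iqcm held 3 empty-vector regions, none of which met H4WT.

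Short sequences were searched on both strands of the promoter windows, with the shares of all 32851 windows as background. GGGCGG, the letters bound by Sp-family factors, was present in 71.9% of windows with an H4WT region without overlap, 54.7% of those with overlap and 42.7% of those with any empty-vector region, against 35.7% of all. TATAAA was present in 4.78, 1.71 and 2.67% against 13.6%. The shares with overlap and with any empty-vector region rest on 2 of 117 and 2 of 75 windows. CCAAT was present in 32.3, 29.9 and 24.0% against 37.4%, and CCGGAAG, the letters of ETS-family sites, in 14.7, 11.1 and 13.3% against 8.86%. The exact 10-letter palindrome of Nrf1 was present in 1.79, 0.855 and 1.33% against 0.971%, and that of Banp in 0.873, 0.855 and 0% against 0.466%. For these palindromes the 0.855 and 1.33% are 1 window each, too few to compare classes. All of these sequences except TATAAA and CCAAT contain CG. Windows with an H4WT region without overlap held a median of 24 CG against 7 in all windows. The shares were not compared at equal CG content. A match is a description and not a site.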
